A study of Mus musculus with 19 samples.

Results

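The Ifi200 family is a cluster of interferon-inducible genes on mouse chromosome 1. Of these, 6 (Ifi203, Ifi204, Ifi205, Ifi208, Mndal and Aim2) were followed in Kupffer cells (KCs), the resident macrophages of the liver. They were listed by name with earlier results of these arrays known, and the much lower level of Ifi208 at day 30 was among those results. For each gene the probeset was chosen by the highest mean over all arrays, among probesets that carry only that gene's symbol. By this rule 4 of the 6 genes could be measured (Ifi203, Ifi205, Ifi208 and Aim2), each on 1 probeset, out of 19938 genes in all. Ifi204 was present only on a probeset that it shares with Ifi211, and no probeset carried Mndal under that symbol. The annotation gives Mndal also as a synonym of Ifi203, so signal from Mndal on the Ifi203 probeset cannot be told apart. Another 6 genes of the cluster had a probeset of their own (Ifi202b, Ifi206, Ifi207, Ifi209, Ifi213 and Ifi214), which gave 10 measured genes of the 14 that the annotation places there.

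The study asked how closely monocytes that refill an emptied KC niche come to resemble the KCs that were seeded before birth. Expression was measured on 19 Affymetrix Mouse Gene 1.0 ST arrays of sorted Clec4F+ KCs from C57Bl/6 mice of both sexes, 6 to 12 weeks of age, and all levels below are log2 values. KC-DTR mice carry a cassette for yellow fluorescent protein and the human diphtheria toxin receptor in the 3′ end of Clec4f, a lectin gene of KCs, so that diphtheria toxin (DT, 50 ng) removes their KCs. Monocyte-derived KCs (mo-KCs) came from KC-DTR mice 15 days (n = 3) or 30 days (n = 5) after DT. Embryonic KCs (em-KCs, n = 11) came from WT mice (n = 3), untreated KC-DTR mice (n = 3), an untreated WT littermate (n = 1), and WT littermates 15 days (n = 2) or 30 days (n = 2) after DT, which lack the receptor and keep their own KCs. The last 8 em-KC samples are called the KC-DTR colony below. Arrays of 1 group are biological replicates per the labels, and neither the sex nor the batch of a sample is stated in the sources used here.

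Proteins of this family are known as PYHIN proteins. Most join a pyrin domain, through which they bind partner proteins, to a HIN domain, which binds DNA. Aim2 senses DNA in the cytosol and assembles an inflammasome with the adaptor Pycard and the protease Casp1. Ifi204 is a mouse relative of human IFI16, a sensor of viral DNA, while Ifi202b has HIN domains but no pyrin domain and can hold back Aim2. Ifi208 and Ifi213 are also called Pydc3 and Pydc4, after their pyrin domain. Interferons raise many genes of the cluster through the factor ISGF3 and the interferon regulatory factors, which bind repeats of the bases gaaa in promoters.

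The promoters are shown because the genes of the cluster differ in expression while sharing this element. In RefSeq (build GRCm38.p6), 12 of the 14 genes had a promoter entry of 300 bases, of which 250 lie before the gene's start. The letters GAAANNGAAA, which overlap the core of the interferon-stimulated response element, were searched on both strands. They were found in 9 of these 12 genes (not in Aim2, Ifi202b or Ifi209). Over all 27025 genes with a promoter entry they were found in 3.99%, and over all 32851 promoters in 3.44%. The match on the gene's own strand read GAAATCGAAA in 7 genes and GAAATTGAAA in 2. Each line gives 60 bases 5′ to 3′ on the gene's strand, with the match in capitals.
Ifi208 (chr1:173673581-173673640, plus strand): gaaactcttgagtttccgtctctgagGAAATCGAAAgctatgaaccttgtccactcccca
Ifi213 (chr1:173599312-173599371, minus strand): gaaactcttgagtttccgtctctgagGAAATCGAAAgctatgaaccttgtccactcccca
Ifi206 (chr1:173491325-173491384, minus strand): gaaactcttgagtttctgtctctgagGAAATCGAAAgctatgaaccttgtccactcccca
Ifi203 (chr1:173942494-173942553, minus strand): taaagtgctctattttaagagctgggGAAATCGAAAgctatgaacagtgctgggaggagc
Mndal (chr1:173880190-173880249, minus strand): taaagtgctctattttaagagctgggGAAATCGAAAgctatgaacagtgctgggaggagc
Ifi205 (chr1:174031856-174031915, minus strand): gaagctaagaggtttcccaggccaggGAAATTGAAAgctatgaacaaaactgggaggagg
The windows of Ifi208 and Ifi213 were identical over all 60 bases, and that of Ifi206 differed from both at 1 base. Aligned on the match and without gaps, the sequence before the start of Ifi208 was identical to that of Ifi206 at 231 of 232 bases (99.6%) and to that of Ifi213 at 233 of 235 (99.1%). The other 6 genes with the match shared 31.8% to 43.2% of their bases with Ifi208. The windows of Ifi203 and Mndal were identical to each other as well. A match of letters is a description of the sequence and not evidence of binding.

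Of the whole series, only the following bears on these genes. Clec4f, which carries the cassette and encodes the protein that the sort relied on, lay at 12.16 to 12.21 in day 15 mo-KCs, 10.66 to 12.29 in day 30 mo-KCs and 12.17 to 12.67 in em-KCs. Clec4f was itself called lower in day 30 mo-KCs than in em-KCs (-1.26, adjusted p = 1.6e-04 from limma). The mean of 10 KC markers was 10.98 to 11.22 in day 15 mo-KCs, 11.15 to 11.41 in day 30 mo-KCs and 11.76 to 11.98 in em-KCs. Day 30 replicates 3 to 5 and the 3 WT em-KC arrays had high Xist and low Eif2s3y, and the other 13 arrays had the reverse. Both genes are sex-linked, and the set with high Xist had the pattern of female mice, though the labels do not state sex. The day 30 results are therefore also given within each set. The mean of 10 hepatocyte markers was 7.40 to 7.79 in day 15 mo-KCs, 7.12 to 8.87 in day 30 mo-KCs and 7.60 to 9.96 in em-KCs, and it was 9.82 to 9.96 on the 3 WT arrays.

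Ifi208 was the 1 gene of the cluster whose levels in day 30 mo-KCs lay apart from those in em-KCs. Day 15 mo-KCs had 5.39, 6.76 and 7.43, and day 30 mo-KCs had 5.23, 4.59, 3.94, 4.47 and 4.93. Among em-KCs, WT mice had 7.11, 7.56 and 7.63, untreated KC-DTR mice 6.86, 7.08 and 7.19, and the untreated littermate 7.13. Littermates had 7.37 and 7.45 at 15 days after DT, and 5.34 and 7.13 at 30 days. All 5 day 30 arrays lay below all 11 em-KC arrays, although the highest of them (5.23) came close to the lowest em-KC array (5.34). For such separations of arrays, here and below, the share over all genes is not given. The day 15 arrays spread over 2.03, wide enough to reach from the level of day 30 mo-KCs to that of em-KCs.

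**Figure D1:**
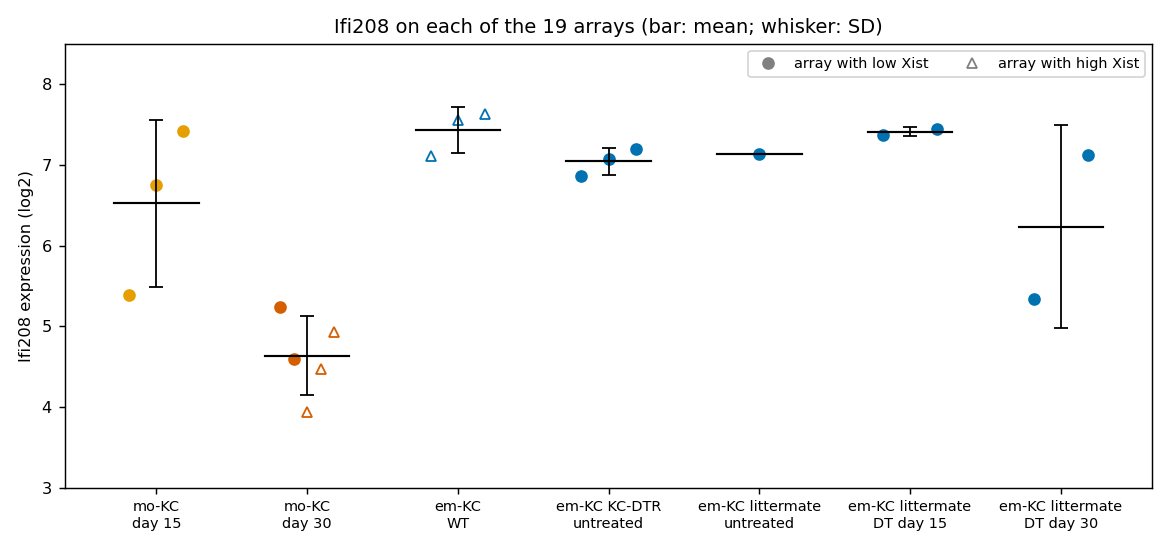
Ifi208 expression (log2, vertical axis) on each of the 19 arrays by condition, with bars for the mean, whiskers for the SD, and filled circles for arrays with low and open triangles for arrays with high Xist. All 5 day 30 mo-KC arrays lie at or below 5.23, and 10 of 11 em-KC arrays lie at or above 6.86.

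Ifi208 fell by 2.44 on the log2 scale in day 30 mo-KCs (4.63 ± 0.49, SD, n = 5) relative to em-KCs (7.08 ± 0.62, SD, n = 11), which is 5.44-fold lower. The standard error was 0.31, the 95% confidence interval ran from -3.10 to -1.79, and the adjusted p was 1.3e-04 from limma over all genes. The files carry no detection call, and all 5 day 30 arrays lay at or below 5.47, under which 95% of 1015 olfactory receptor genes averaged on these arrays (median 3.84), as did 1 day 15 array and 1 em-KC array. Whether the day 30 level lay above background is therefore not known, and the fold is that of the measured signals. Ifi208 was the 1 called gene among the 4 measured members, where 0.787% of all genes were called and 0.492% were called lower. Since this value was known when the family was listed, the count is a description of the members and no independent support. In a sorted population, fewer cells that express a gene and less RNA per cell cannot be told apart. Within the 6 arrays with high Xist the difference was -2.99 (adjusted p = 0.0026 from limma), and within the 13 with low Xist it was -2.03, which limma did not call (adjusted p = 0.114). With the hepatocyte marker mean as a covariate the day 30 difference was -2.35, and without the 3 WT arrays it was -2.31. The mean of 7 monocyte markers was 7.16 to 7.49 in day 15 mo-KCs, 6.72 to 7.03 in day 30 mo-KCs and 6.38 to 7.22 in em-KCs, and its part in the result was not tested. A direct test of the difference between the sets gave -0.95 (95% confidence interval -2.30 to 0.39, adjusted p = 0.459 from limma), with 0 of 4 members called, also at an unadjusted p under 0.05, and 4.72% of all genes called.

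At day 15 the difference of Ifi208 from em-KCs was -0.55 (95% confidence interval -1.34 to 0.24, adjusted p = 0.928 from limma), between 6.53 ± 1.04 (SD, n = 3) in mo-KCs and 7.08 ± 0.62 in em-KCs. None of the 4 members was called at day 15 by limma, none had an unadjusted p under 0.05, and 0.502% of all genes were called. Replicates 1 and 3 set this value, since the difference was 0.01 without replicate 1 and -1.003 without replicate 3. Between the days, Ifi208 differed by -1.89 at day 30 relative to day 15 (standard error 0.43, 95% confidence interval -2.78 to -1.01), with no overlap of arrays. The unadjusted p was 2.3e-04 but the adjusted p was 0.378 from limma, where 0.0201% of all genes were called and 0 of 4 members. Without day 15 replicate 1 the difference was -2.46 and passed (adjusted p = 0.0436 from limma). Without day 15 replicate 3 it was -1.44 (adjusted p = 0.983 from limma). All day 15 arrays had low Xist, and within the 13 arrays with low Xist it was -1.61 (adjusted p = 0.999 from limma).

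Arrays with like positions on the other genes called at day 30 differed in Ifi208. Each array was placed on a scale built from 156 called genes outside the family, on which em-KCs average 0 and day 30 mo-KCs average 1. The genes were chosen on the same comparison, so the distance between em-KCs and day 30 mo-KCs is set by the construction. Each em-KC or day 30 array is also drawn towards the mean of its own group. Day 15 arrays entered neither mean. Day 15 mo-KCs stood at 0.99, 1.07 and 1.07, inside the range of day 30 mo-KCs (0.88 to 1.10), while their Ifi208 was 5.39, 6.76 and 7.43. The littermate array 30 days after DT with 5.34 stood at -0.04, inside the range of the other em-KCs (-0.06 to 0.06), as the construction favours. Its Clec4f was 12.57 and its Ccr2, the receptor by which monocytes leave the bone marrow, was 5.48, both within the em-KC range. Ccr2 did not separate day 30 mo-KCs (5.57 to 6.67) from em-KCs (5.03 to 6.27). In day 15 mo-KCs it was 8.17 to 8.77, above all arrays of both groups. Cx3cr1, another monocyte marker, was picked after its values were seen. It was 8.02 to 9.97 in mo-KCs of both days and 6.61 to 7.85 in em-KCs, with no overlap. The other monocyte markers are not given here by array.

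**Figure D2:**
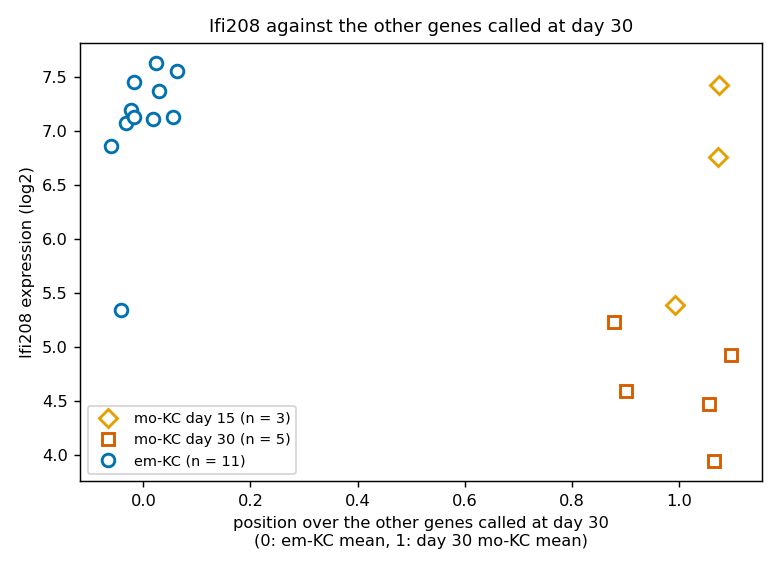
Ifi208 expression (log2, vertical axis) of each array against its position over 156 other genes called at day 30 (horizontal axis, 0 for the em-KC mean and 1 for the day 30 mean), with diamonds for day 15 mo-KCs, squares for day 30 mo-KCs and circles for em-KCs. Day 15 mo-KCs stand at 0.99 to 1.07 with Ifi208 from 5.39 to 7.43, and 1 em-KC array has 5.34 at a position of -0.04.

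Over the 7 conditions, mean Ifi208 was highest in WT em-KCs (7.43) and littermates 15 days after DT (7.41), followed by the untreated littermate (7.13), untreated KC-DTR mice (7.05), day 15 mo-KCs (6.53), littermates 30 days after DT (6.24) and day 30 mo-KCs (4.63). Neighbours in this order overlapped in their arrays at all steps but 2, which were that between both littermates 15 days after DT and the single untreated littermate, and the last step to day 30 mo-KCs. Untreated KC-DTR em-KCs differed from the 5 littermate em-KCs by 0.16 (95% confidence interval -0.67 to 0.99, adjusted p = 1 from limma), an interval that holds differences of up to 0.99. By limma 0 of 4 members were called in that comparison, none with an unadjusted p under 0.05, and 0% of all genes.

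The 3 genes outside the family whose pattern was most like that of Ifi208 over the 19 arrays were Trf (Pearson r = 0.86), which encodes the iron carrier transferrin, Ptafr (0.83), the receptor for platelet-activating factor, and Clec4f (0.82). The arrays share the groups that separate them, so these values are a description. Within the 11 em-KC arrays r was 0.85 for Trf, 0.64 for Ptafr and 0.05 for Clec4f. Without the littermate array at 5.34 it was 0.59, 0.67 and 0.49. Day 30 mo-KCs had 11.35 ± 0.24 for Trf (SD, n = 5), and em-KCs had 11.84 ± 0.11 (SD, n = 11). For Ptafr the levels were 5.40 ± 0.29 in day 30 mo-KCs and 6.18 ± 0.40 in em-KCs.

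The genes with near-identical promoters showed no difference of that size. Ifi213, which like Ifi208 is also named after its pyrin domain, had 8.75, 8.76 and 9.17 in day 15 mo-KCs and 8.72, 8.96, 9.35, 8.81 and 9.32 in day 30 mo-KCs, against a lowest, median and highest level of 8.43, 8.84 and 9.01 in em-KCs. Its day 30 difference was 0.24 (95% confidence interval 0.01 to 0.48, adjusted p = 0.368 from limma). For Ifi206 the mean was 9.60 ± 0.17 at day 15 (SD, n = 3), 9.43 ± 0.26 at day 30 (SD, n = 5) and 9.09 ± 0.48 in em-KCs (SD, n = 11). By limma neither its difference of 0.52 at day 15 (adjusted p = 0.792) nor that of 0.34 at day 30 (adjusted p = 0.487) was called. The annotation gives 1 older clone name to both Ifi208 and Ifi213, and whether their probes detect each other's transcripts was not tested.

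Aim2, the DNA sensor of the inflammasome, had 8.75, 8.76 and 9.04 in day 15 mo-KCs and 8.97, 8.89, 8.91, 8.65 and 8.80 in day 30 mo-KCs. In em-KCs the lowest, median and highest levels were 8.40, 8.76 and 9.06, so the ranges of both mo-KC groups lay within that of em-KCs. The differences from em-KCs were 0.11 at day 15 (95% confidence interval -0.14 to 0.36) and 0.10 at day 30 (-0.10 to 0.31). Neither passed, and the intervals leave out a change of more than 0.36 in either direction.

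Ifi203, a nuclear member of the family, had 10.96, 11.05 and 11.08 in day 15 mo-KCs and 10.98, 11.17, 11.09, 10.79 and 10.83 in day 30 mo-KCs. Its lowest, median and highest levels in em-KCs were 10.63, 11.10 and 11.25. The differences were 0.02 at day 15 (95% confidence interval -0.23 to 0.26) and -0.04 at day 30 (-0.24 to 0.16). These were the narrowest intervals among the 4 members at both days.

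Ifi205, also known as D3, had 9.46, 9.76 and 10.07 in day 15 mo-KCs and 9.40, 9.55, 10.04, 9.55 and 9.63 in day 30 mo-KCs, against 9.17, 9.82 and 10.12 for the lowest, median and highest em-KC level. Its differences were 0.06 at day 15 (95% confidence interval -0.32 to 0.45) and -0.07 at day 30 (-0.39 to 0.25). The probeset shared by Ifi204 and Ifi211 gave 10.11 to 10.29 in day 15 mo-KCs, 9.82 to 10.45 in day 30 mo-KCs and 9.79 to 10.31 in em-KCs. It was not tested, as a change in either gene alone could be hidden in the common signal.

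Among the remaining genes of the cluster, neither Ifi207 (-0.14 at day 30), Ifi209 (0.18), Ifi214 (0.17) nor Ifi202b (-0.12) passed in either mo-KC group. Ifi202b, the inhibitor of Aim2, lay at 3.12 to 3.89 on all arrays, around the median of the olfactory receptor genes (3.84). Ifi214 averaged 5.05 in day 15 mo-KCs, 5.23 in day 30 mo-KCs and 5.06 in em-KCs. These means lay below 5.47, under which 95% of the olfactory receptor genes averaged. Whether either gene lay above background is not known, and both count among the 10 measured genes. Over the 10 measured genes the median difference was 0.09 at day 15 and 0.03 at day 30, beside -0.01 and -0.02 over all genes. Over the 19 arrays the SD of Ifi208 was 1.24, against 0.17 to 0.44 for the other 9. This SD includes the day 30 difference given above and is no separate result. The nearest 3 measured genes on each side of the cluster (Cadm3, Ackr1 and Olfr418, and Olfr433, Olfr432 and Olfr430) were not called at either day.

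**Figure D3:**
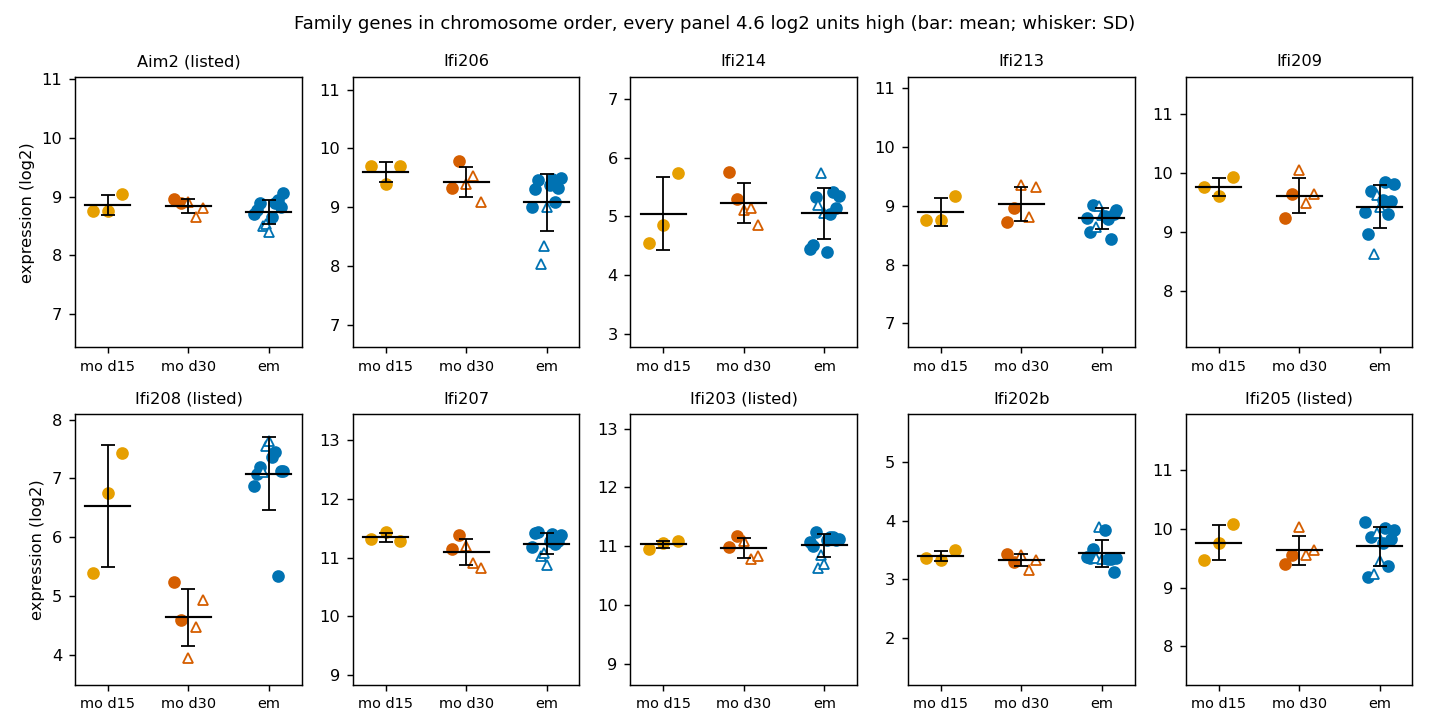
Expression (log2, vertical axis) of the 10 measured genes in chromosome order on each array of day 15 mo-KCs (mo d15), day 30 mo-KCs (mo d30) and em-KCs (em), with bars for the mean, whiskers for the SD and open triangles for arrays with high Xist. All panels span the same height, and only Ifi208 has day 30 arrays that do not overlap with em-KCs.

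Between em-KCs of different origin, 2 of 4 members were called, and neither call was kept with the hepatocyte marker mean as a covariate. Ifi203 had 10.63, 10.84 and 10.70 on the WT arrays, against 11.01, 11.11 and 11.25 for the lowest, median and highest of the 8 KC-DTR colony em-KCs, and fell by 0.39 in WT (standard error 0.09, adjusted p = 0.0081 from limma). Aim2 had 8.49, 8.54 and 8.40 on the WT arrays, against 8.65, 8.86 and 9.06 in the colony, and fell by 0.36 (standard error 0.09, adjusted p = 0.0132 from limma). The WT arrays lay below all colony arrays for both genes, and how many of all genes separate in this way is not given. Ifi208 differed by 0.49 (95% confidence interval -0.28 to 1.26) and Ifi205 by -0.22 (-0.63 to 0.19), and neither passed. So 2 of 4 members were lower, where 17.9% of all genes were called and 10.1% were called lower. Of the other cluster genes, Ifi206 fell by 0.85 (adjusted p = 0.0026 from limma) and Ifi207 by 0.34 (adjusted p = 0.0387 from limma). The call of Ifi207 rested on single arrays: it was lost in 6 of the 11 fits that left out 1 em-KC array, which were those without WT replicate 1, 2 or 3, KC-DTR replicate 2 or 3, or littermate replicate 2 at 15 days after DT (-0.38 to -0.28, adjusted p 0.058 to 0.162 from limma).

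The WT and colony arrays also differed in other genes. All 10 hepatocyte markers were higher in WT, with a median difference of 1.91, and Alb, which encodes albumin, was 12.50 ± 0.08 (SD, n = 3) on the WT arrays and 10.64 ± 0.49 (SD, n = 8) in the colony. With the hepatocyte marker mean as a covariate the difference of Ifi203 was -0.09, that of Aim2 -0.15, that of Ifi206 -0.52 and that of Ifi207 0.062. None of these 4 genes and none of the 4 members was then called, where 1.57% of all genes were. The hepatocyte marker mean was 9.82 to 9.96 in WT and 7.60 to 8.51 in the colony, so this covariate and the WT comparison are hard to separate. With it, the standard error of the Ifi208 difference rose from 0.36 to 0.69. How far this overlap with the comparison accounts for the lost calls was not tested. Without WT replicate 3, Aim2 was no longer called (-0.32, adjusted p = 0.0637 from limma). After a second quantile normalization neither Aim2 (-0.20, adjusted p = 0.106 from limma) nor Ifi207 (-0.27, adjusted p = 0.0905 from limma) was called. Markers of other blood cells differed between these arrays too. Of 7 monocyte markers 2 were higher in WT (Fn1 and Cx3cr1), and the mean of the 7 was 6.86 to 7.22 in WT and 6.38 to 6.69 in the colony. Of 7 plasmacytoid dendritic cell markers 3 were lower (Bst2, itself induced by interferon, Tcf4 and Ccr9) and 1 was higher (Il3ra), with a mean of 7.02 to 7.11 in WT and 7.11 to 7.32 in the colony. Siglech, a lectin that marks these cells, was 5.70 to 5.97 in WT and 5.40 to 6.34 in the colony. The part of either cell type in the differences was not tested. All WT arrays and no colony array had high Xist, so the origin of the mice and the array set cannot be told apart.

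**Figure D4:**
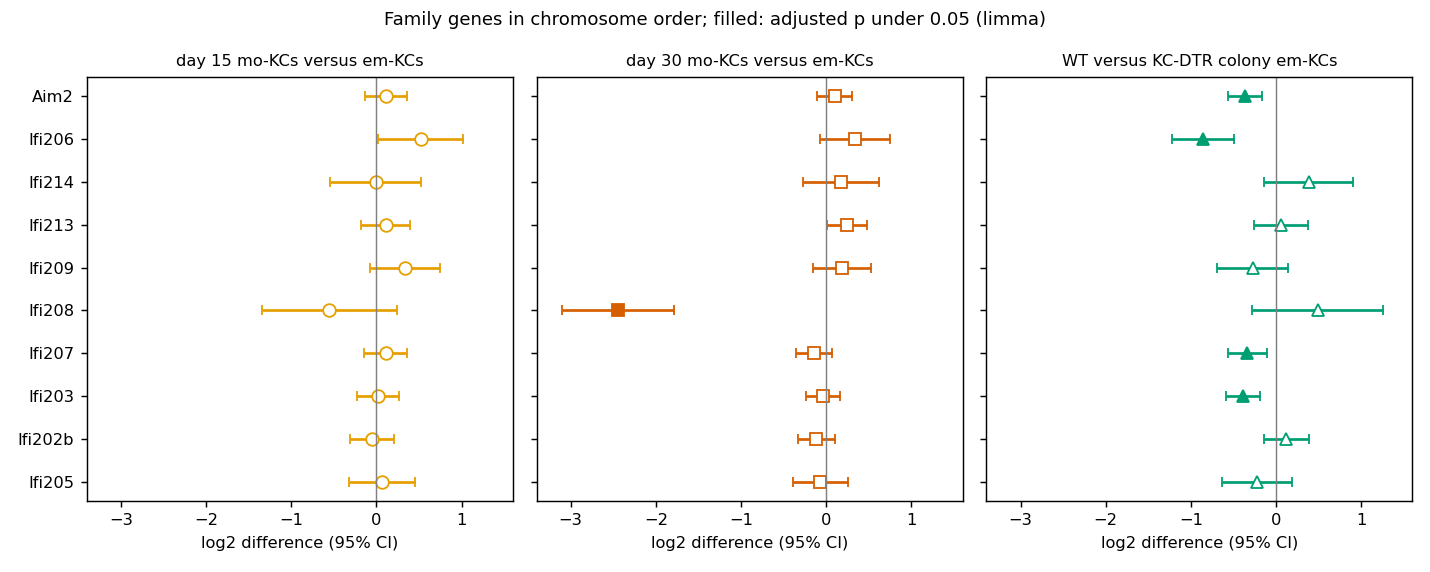
Log2 differences with 95% confidence intervals (horizontal axis) of the 10 measured genes in chromosome order for day 15 mo-KCs versus em-KCs, day 30 mo-KCs versus em-KCs and WT versus KC-DTR colony em-KCs, with filled symbols for an adjusted p under 0.05 from limma. Ifi208 at -2.44 is the filled symbol at day 30, and Aim2, Ifi206, Ifi207 and Ifi203 are filled between -0.34 and -0.85 in WT em-KCs.

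Outside the cluster, no gene of the pathways in which these genes act was called between mo-KCs and em-KCs. In 5 lists of 96 genes in all, 86 were measured, and limma called 0 of them at day 30 and 0 at day 15 (10 and 12 with an unadjusted p under 0.05), as did the methods' t-test. Over all genes limma called 0.787% at day 30 and 0.502% at day 15, the methods' t-test called 0.421% and 0.331%, and an unadjusted p under 0.05 was found for 13% and 6.05%, so a count of 0 among 86 genes is near these shares. With the hepatocyte covariate 1 gene was called at day 30, in the direction of lower levels, where 3.44% of all genes were called. The largest difference in either direction was 0.32 at day 30 and 0.72 at day 15. Of the inflammasome genes, Pycard, the adaptor of Aim2, was 9.59 in day 30 mo-KCs and 9.33 in em-KCs (difference 0.26, 95% confidence interval 0.09 to 0.43, adjusted p = 0.16 from limma). Casp1, the protease that Aim2 activates, was 10.23 and 10.00 in the same groups (adjusted p = 0.41 from limma). The interferon response genes, which respond to the same signals as the cluster, had a median difference of 0.10 at day 15 and 0.14 at day 30 over 27 genes, and the 18 genes of interferon receptors and signalling had 0.04 and -0.09. Irf9, the DNA-binding subunit of ISGF3, was 8.12 in day 30 mo-KCs and 8.08 in em-KCs. Pycard, Casp1 and Irf9 are named for their roles.

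In WT em-KCs, 4 of the same 5 lists held called genes, where 10.1% of all genes were called lower and 7.77% higher. Of the 27 type I interferon response genes 7 were lower and 1 was higher than in the colony, among them Ifit3, an antiviral protein that binds viral RNA with its partners (10.01 in WT and 11.07 in the colony, difference -1.06). Of the 7 interferon-gamma induced GTPases 4 were lower, with Gbp7 at 8.71 and 9.57. Of the 15 inflammasome genes 3 were lower and 1 was higher, which were Il1b (10.16 and 11.26), the inflammasome sensor Nlrp3 (7.63 and 8.37), Casp1 (9.72 and 10.10) and, as the higher one, Ninj1 (10.81 and 10.20), whose protein ruptures the membrane in lytic cell death. None of the 19 nucleic acid sensing genes was called by limma (7 with an unadjusted p under 0.05, beside 32.6% of all genes), and 2 of the 18 signalling genes were higher. Genes in this paragraph were chosen after their values were seen. With the hepatocyte covariate, whose values did not overlap between WT and colony arrays, 1 of the 86 genes was called. It was called in the direction of higher levels, beside 1.57% of all genes.

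Among genes outside the family, the pattern most like that of Aim2 over the 19 arrays was found in Gbp9, an interferon-induced GTPase (Pearson r = 0.92), followed by Atp5b (0.89) and Eif4a3 (0.87). For Ifi203 these were Immt (0.94), Rock1 (0.94) and Tlk2 (0.92), and for Ifi205 Gfus (0.79), Cox5a (0.79) and Fxyd2 (0.72). Within the cluster, Ifi203 and Ifi207 went together (0.82), as did Ifi203 and Aim2 (0.76) and Ifi205 and Ifi209 (0.73), whereas Ifi208 had values between -0.31 and 0.36 with the other 9 genes. Since the arrays of a group share their origin, these correlations describe the 19 arrays.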

How the data were processed

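KCs sorted as Clec4F+ cells were hybridised to 1 array each. The authors deposited log2 expression per probeset after Robust Multi-array Average (background correction and quantile normalization), with software versions that are not stated here. Values ran from 1.71 to 14.4. Of 35556 probesets 21789 carried 1 gene symbol, 1621 several and 12146 none, and only those with 1 symbol were used. The highest-mean probeset was kept per gene, following the study's methods, which left 19938 genes.

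Arrays were fitted in 3 groups (or, for comparisons among em-KCs, in 7 conditions) with limma 3.58.1 (lmFit, eBayes) in R 4.3.3. Tests were two-sided, with the Benjamini-Hochberg method applied across the 19938 genes and calls made at an adjusted p under 0.05. The fit was tested on simulated data. The members and gene lists were chosen with earlier results of these data known. The text names the members, the other genes of the cluster, the 3 genes most correlated with each member outside the family, the nearest 3 measured genes on each side, Clec4f, Alb, Xist and Eif2s3y. This rule also took genes of the other lists that were called in mo-KCs, and there were none in the 5 pathway lists. Of 10 KC markers 4 were called lower at day 30 and 3 at day 15. Of 7 monocyte markers 1 and 2 were called higher, and of 10 lymphocyte markers 1 was called lower at each day. These called markers were not all named. Outside the rule, Pycard, Casp1, Irf9 and Ccr2 were named for their roles. Cx3cr1 and the genes of the other lists in WT em-KCs, Siglech included, were named after their values were seen. Alternatives covered the probeset, filter, normalization, variance model, methods' t-test, replicate block, array set, hepatocyte covariate and leaving out each array. The number of arrays limits the precision.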

Additional observations from a re-analysis of the deposited data

Results flagged for a closer look

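The littermate em-KC array 30 days after DT with the number 1 stood apart in 2 genes of the cluster. Its Ifi208 of 5.34 was the lowest of the 5 littermate em-KCs and of the 8 em-KCs of the KC-DTR colony, with a gap to the next array above Dixon's 95% critical value. Its Ifi213 of 8.43 was the lowest of the 5 littermate em-KCs by the same measure. These were 3 of 30 pairs of a gene and a group tested (10 genes, each in 3 groups, of which the littermates are part of the colony). Chance flags about 1 in 20 groups. Without this array, em-KCs averaged 7.25 ± 0.24 (SD, n = 10) for Ifi208, and the day 30 difference was -2.62.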

How the results depend on the processing

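Of 904 alternative values, 843 kept their direction and side of the threshold. The day 30 difference of Ifi208 stayed negative in all of them, from -2.99 to -2.03, and the count of members called at day 30 was 1 except within the 13 arrays with low Xist (0). Between the days 1 member was called without day 15 replicate 1, and leaving out 1 array gave 0 to 1. In WT em-KCs, 1 member (Ifi203) was called after a second quantile normalization, 0 with the hepatocyte covariate, and 1 to 2 on leaving out 1 array. Over all genes, 157 calls at day 30 compared with 84 by the methods' t-test, 514 with the set as a block, 65 and 827 within the sets of 13 and 6 arrays, 685 with the hepatocyte covariate, and 93 to 316 on leaving out 1 array. In WT em-KCs 3571 calls compared with 314 under that covariate.

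Deviations of same-numbered arrays from their condition means had a median correlation of 0.018 over 36 pairs (-0.12 to 0.15). Over 96 pairs with different numbers it was -0.0050 (-0.16 to 0.14). The labels state no pairing, and none was used in the main fit. With the replicate block Ifi208 at day 30 was -2.56 (adjusted p = 0.0049 from limma), 49 genes were called, Ifi207 was 0.015 and Ifi203 0.068 at day 30, and Ifi213 in WT was -0.020.

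Several values turned their sign. Among them, Ifi207 in WT was called in the main fit, and Ifi208 at day 15 was -0.55 there. At day 30, within the 6 arrays with high Xist, Ifi214 was -0.30, Ifi203 0.17 and Ifi205 0.20. Within the 13, Ifi209 was -0.062. With the set as a block Ifi203 was 0.063. At day 15, the hepatocyte covariate gave -0.061 for Aim2, -0.072 for Ifi207, -0.17 for Ifi203, -0.0096 for Ifi205 and 0.016 for Ifi214. Ifi214 was 0.019 after a second quantile normalization. Without the WT arrays, and within the 13, Ifi214 was 0.095 and Ifi203 -0.090, and with the set as a block they were 0.010 and -0.069. Ifi208 in KC-DTR em-KCs was -0.086 against only the untreated littermate. In WT with the covariate Ifi213 was -0.032 and Ifi207, called otherwise, was 0.062. Leaving out 1 array gave -0.090 to 0.0055 for Ifi203 at day 30. At day 15 it gave -0.36 to 0.24 for Ifi214, -0.031 to 0.18 for Ifi213, -1.003 to 0.013 for Ifi208, -0.021 to 0.052 for Ifi203 and -0.090 to 0.22 for Ifi205. It gave -0.22 to 0.30 for Ifi208 in KC-DTR em-KCs, and in WT -0.031 to 0.15 for Ifi213, -0.48 to 0.028 for Ifi209 and -0.060 to 0.22 for Ifi202b. The cause was not tested.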
